A study of Danio rerio with 2 samples.

Results

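The genes described here were 7 transcription factors of early neuronal differentiation, *neurog1*, *neurod4*, *neurod1*, *insm1a*, *insm1b*, *olig2* and *olig4*. They were picked by symbol from the 36351 genes of the deposited count tables, and all 7 were present in both libraries. Their identifiers in the tables were LL0000020229, LL0000020226, LL0000020224, LL0000012790, LL0000012791, LL0000020873 and LL0000020875, in the order given.

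In the vertebrate spinal cord, neurons are born from progenitors that line the ventricle. Proneural basic helix-loop-helix (bHLH) factors such as Neurog1 start the programme, switch on Delta ligands that hold neighbouring cells back through Notch, and are followed by bHLH factors of the Neurod family in precursors and young neurons. Insm1 is a zinc finger repressor that is made for a short time in newly born neurons and that recruits the Lsd1, CoREST and histone deacetylase machinery. Zebrafish has a pair of Insm1 genes, *insm1a* and *insm1b*. Olig2 is a bHLH repressor best known for the ventral progenitors that give motoneurons and then oligodendrocytes, and Olig4 is another zebrafish member of that family.

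The study examined V0v neurons, excitatory commissural interneurons that express *evx1* and *evx2* and arise from progenitors that express *dbx1a*. Cells that carried EGFP were sorted from trunks of 48 h zebrafish embryos, fixed in methanol and sequenced as 2 droplet libraries, titled OtherGFP (library 1) and AllGFP (library 2). The parents were heterozygous for both *evx1* i232 and *evx2* sa140 and homozygous for the transgene *Tg(evx1:EGFP)SU2*, so every cell in every group came from a transgene carrier, embryos of all genotypes were pooled, and no cell had a genotype label. The libraries formed 1 group with 2 replicates, and no source used here said how their sorting differed or whether they came from separate clutches. The p-values therefore rest on how far differences between cell groups varied between these libraries, pooled over the groups. That spread may be technical.

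Cell groups were therefore built from expression. The tables held 4373 and 6223 cells, of which 3571 and 4556 passed limits on UMIs (unique molecular identifiers, counts of captured mRNA molecules), on detected genes and on mitochondrial UMIs. Their median depth was 3669 and 4334 UMIs, 3 cell barcodes occurred in both libraries, and no doublet caller was run beyond the upper limits. Library 1 stood apart in heat-shock genes: in progenitor-like cells *hsp70l*, an inducible chaperone gene, stood at 5955 CPM (counts per 1000000 UMIs) in library 1 and 131 CPM in library 2. The sorted cells did not hold V0v neurons alone, with 69 and 717 fibroblast-like cells among them.

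Progenitor-like cells were 139 cells in library 1 and 236 in library 2. Their name fitted the glial and stem cell genes *sox2*, *sox3*, *sox19a*, *gfap* and *fabp7a*, with *gfap* at 3805 and 3006 CPM against 21.1 and 15.6 CPM in WT-like group 1. Among 3243 and 2990 neuron-like cells, WT-like groups 1 and 2 kept *evx1*, *evx2* and the glutamate transporter gene *slc17a6a*, and mutant-like groups 1 and 2 had less *evx2* and more of the glycine transporter gene *slc6a5*. These names state expression only, since a mutant cell was never identified by genotype. The 4 V0v groups held 449 and 442, 755 and 306, 269 and 174, and 473 and 395 cells. A further 1205 and 1527 neuron-like cells were left unnamed, and 92 and 146 cells formed a cluster called the inhibitory cluster below. By its levels this cluster, number 10 of the neuron-like cells, met the naming rule of mutant-like group 1. A further rule set it apart, because it combined inhibitory markers and low *evx2* with markers of both WT-like groups. Its 6 markers of group 1 and 2 of group 2 were the same counts as in both WT-like group 1 clusters. It was not the sole cluster with high *slc6a5* outside the named groups. Cluster 11 of the neuron-like cells (51 and 172 cells) had *slc6a5* at 1074 CPM, against 1350 CPM, and stayed among the unnamed neurons. By its marker levels, with *evx2* at 45.4 CPM and 3 markers of group 2, it met the rule of mutant-like group 2. It was left unnamed because its leading genes held more markers of other cell types than of its own. These were the globin genes *hbae1.1*, *hbae3* and *hbbe1.1*, and *foxd3*. The 7 genes and all listed genes were kept out of the clustering, but groups and levels came from the same cells, so differences among clusters and sub-clusters are given as descriptions without a test.

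Of the kept cells 4.61% were progenitor-like, with 4.06% of all UMIs. They held 77.7% of all *neurod4* UMIs, 77.7% of *olig2*, 59.98% of *neurog1*, 18.4% of *olig4*, 13.04% of *neurod1*, 9.72% of *insm1b* and 7.94% of *insm1a*. Each share lay above 4.06%, yet the genes split into those found mostly in progenitor-like cells and those found mostly in neurons. Neuron-like cells held 88.8% of the *insm1b* UMIs, 85.2% of *insm1a*, 84.0% of *neurod1* and 80.4% of *olig4*.

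**Figure D1:**
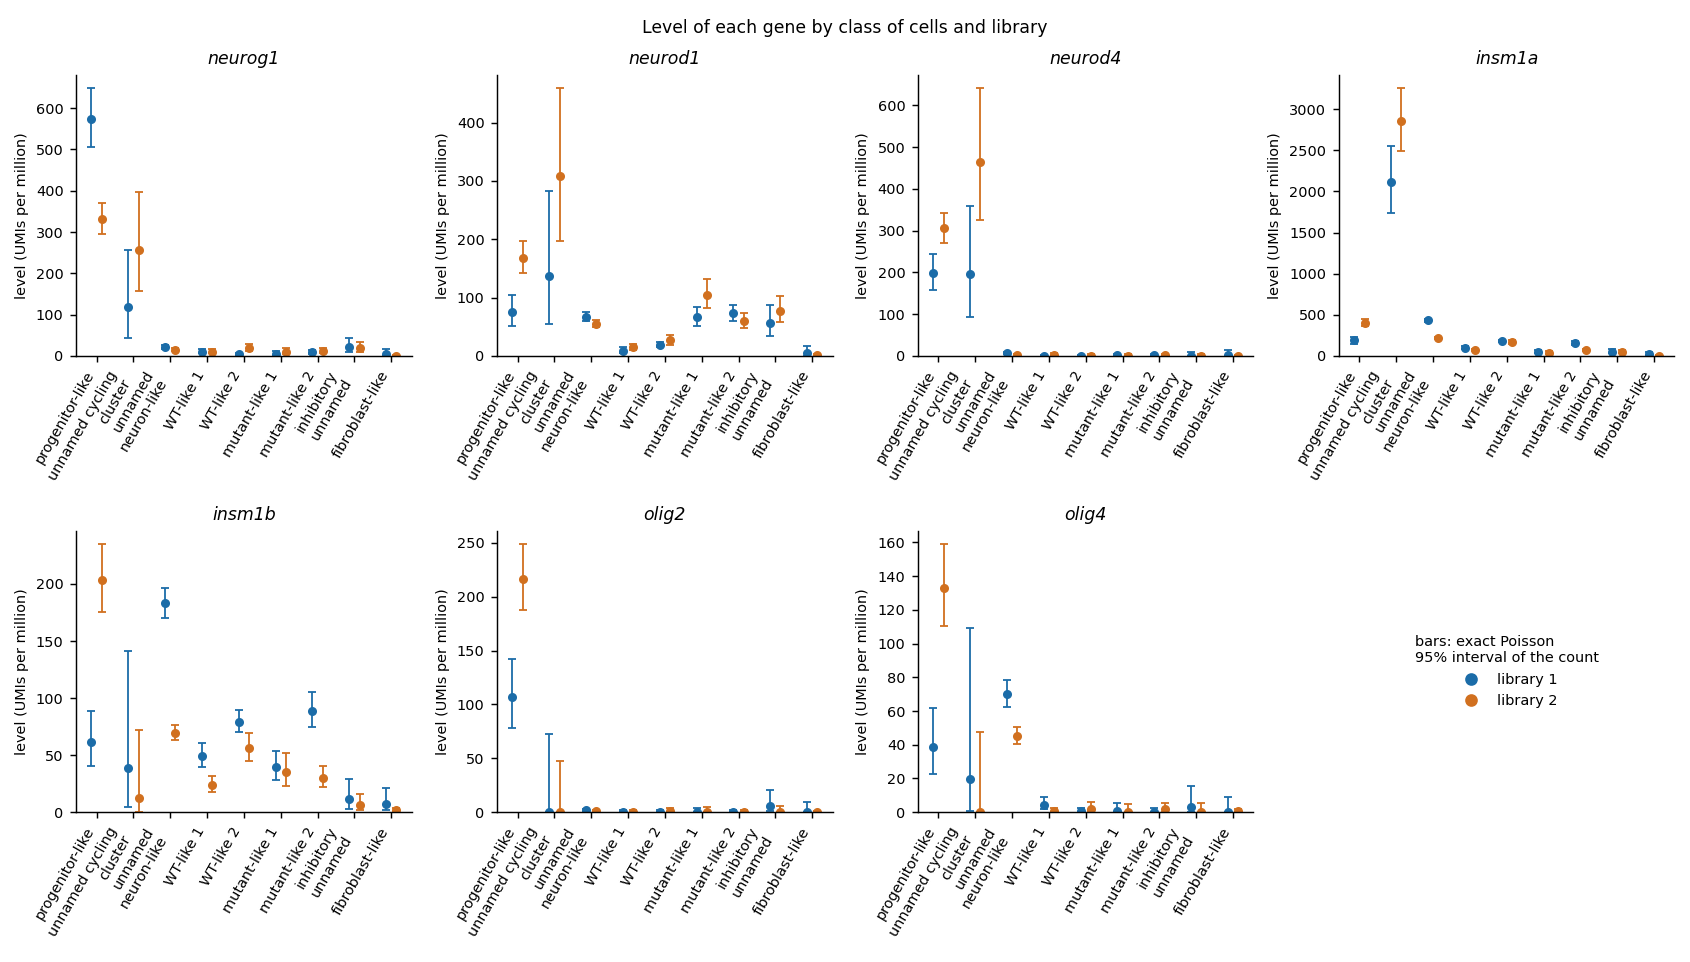
Level of each of the 7 genes (CPM, vertical axis) in the cell groups of library 1 and library 2, with exact Poisson 95% intervals of the count as bars. *neurog1*, *neurod4* and *olig2* peak in progenitor-like cells or the small cycling cluster, while *insm1a*, *insm1b*, *neurod1* and *olig4* extend into neurons.

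*neurog1*, the proneural gene, stood at 574 CPM (253 UMIs) in the progenitor-like cells of library 1 and 331 CPM (306 UMIs) in those of library 2. In the V0v groups it lay between 4.95 and 19.2 CPM over both libraries. The unnamed neurons had 21.2 and 14.9 CPM and the inhibitory cluster 22.5 and 18.7 CPM, and the intervals of these last groups overlapped in each library. Fibroblast-like cells, which should lack all 7 genes, had 4.90 and 0.245 CPM.

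To compare cells of unlike depth, each cell was thinned to 2000 UMIs and shallower cells were left out, which kept 104 of 139 and 218 of 236 progenitor-like cells. At that depth *neurog1* was detected in 36.5% (27.3 to 46.6%, exact binomial 95% interval) and 25.2% (19.6 to 31.5%) of them, against 46.8% and 36.0% without thinning. None of 778 thinned fibroblast-like cells had a *neurog1* UMI, which allows a share of up to 0.386%. Median depth was 2927 and 3694 UMIs in progenitor-like cells and 5569 and 5648 UMIs in fibroblast-like cells. Intervals and limits of this kind cover counting error only.

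*neurod4*, a bHLH gene of the differentiation step, followed *neurog1* most closely. Its level was 197 and 305 CPM in progenitor-like cells, 5.89 and 2.15 CPM in unnamed neurons, and between 0 and 2.93 CPM in the V0v groups, where fibroblast-like cells had 2.45 and 0.245 CPM. The V0v levels of *neurod4* were thus close to those of cells that should lack it. Thinned progenitor-like cells held it in 24.0% and 30.7% of cells, against 0.129% of fibroblast-like cells.

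*neurod1*, its relative, had a wider reach. Progenitor-like cells had 74.8 and 168 CPM, unnamed neurons 67.4 and 55.0 CPM, and mutant-like groups 66.1 and 105 CPM (group 1) and 73.3 and 60.02 CPM (group 2). The inhibitory cluster had 56.2 and 77.8 CPM. WT-like groups sat lower, at 8.90 and 14.6 CPM (group 1) and 18.9 and 26.7 CPM (group 2). No WT-like sum thus reached any sum of the mutant-like groups or the inhibitory cluster. Cluster 11, which also had high *slc6a5*, had 22.7 CPM over both libraries, among the WT-like levels. Fibroblast-like cells had 4.90 and 0.982 CPM.

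*insm1a* was the gene of the set with the most UMIs, 5734 in all kept cells. Progenitor-like cells had 188 and 403 CPM and unnamed neurons 433 and 216 CPM, so the order of these 2 groups turned between libraries. WT-like group 2 had 183 and 170 CPM, mutant-like group 2 had 157 and 68.2 CPM, and WT-like group 1 had 101 and 72.6 CPM. Mutant-like group 1, at 52.3 and 38.2 CPM, and the inhibitory cluster, at 50.6 and 46.7 CPM, formed the low end with overlapping intervals, above 26.9 and 3.93 CPM in fibroblast-like cells.

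*insm1b* ran in parallel at 61.2 and 204 CPM in progenitor-like cells, 183 and 69.8 CPM in unnamed neurons and 11.2 and 6.22 CPM in the inhibitory cluster. The V0v groups lay between 23.9 and 88.8 CPM. Of the UMIs of the pair, *insm1a* took 75.5% and 66.4% in progenitor-like cells, 70.2% and 75.6% in unnamed neurons, 67.4% and 75.3% in WT-like group 1 and 69.7% and 75.2% in WT-like group 2. Mutant-like group 1 had the lowest *insm1a* share, 57.0% (46.3 to 67.2%, exact binomial) and 51.9% (37.8 to 65.7%).

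*olig2* was close to absent from neurons. Progenitor-like cells had 107 and 217 CPM, and the 4 V0v groups together had 2 UMIs, 1 in each library and both in WT-like group 2. A few cells carried much of the signal: a single progenitor-like cell held 39 of the 247 UMIs. In thinned cells *olig2* was detected in 9.62% and 10.1% of progenitor-like cells and in 0 of 778 fibroblast-like cells.

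*olig4* did not share the pattern of *olig2*. Progenitor-like cells had 38.6 and 133 CPM and unnamed neurons 70.0 and 45.3 CPM, while the V0v groups and the inhibitory cluster lay between 0 and 4.45 CPM. Fibroblast-like cells had 0 and 0.491 CPM. *olig4* therefore marked progenitor-like cells and a portion of the unnamed neurons, and no named neuron group.

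To ask which genes set progenitor-like cells apart from V0v neurons, summed counts were compared with edgeR's quasi-likelihood test with a term for the library. Progenitor-like cells were set against the mean of the 4 V0v groups. At an adjusted p (Benjamini-Hochberg) under 0.05, 47.2% of the 9767 genes passed, 20.8% as higher and 26.4% as lower. All 7 genes passed as higher, in a comparison where passing was common. The filter kept genes with enough counts in any class. Genes near 0 in the V0v groups, such as *olig2*, *neurod4* and *olig4*, could therefore hardly have passed as lower. A sum cannot tell fewer expressing cells from less RNA per cell, for which the shares of cells above are given.

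The largest differences were those of *olig2*, *neurod4*, *olig4* and *neurog1*. *olig2* differed by 10.37 on the log2 scale, a fitted value that rests on 2 UMIs in the V0v groups, and the ratio of summed levels was 1214 (332 to 10078, 95% counting interval). Without the 12-cell sub-cluster described below it was 9.56. *neurod4* differed by 8.09 ± 0.33 (SE, adjusted p = 2.52e-21, edgeR), *olig4* by 6.37 ± 0.45 (adjusted p = 2.31e-14) and *neurog1* by 5.76 ± 0.26 (adjusted p = 2.06e-20). The ratios of summed levels were 242 (145 to 436) for *neurod4*, 72.4 (44.7 to 124) for *olig4* and 43.3 (35.6 to 52.9) for *neurog1*.

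*neurod1*, *insm1a* and *insm1b*, the genes with substantial levels in neurons, differed less, by 1.99 ± 0.24 (adjusted p = 1.54e-08), 1.95 ± 0.26 (adjusted p = 7.56e-08) and 1.91 ± 0.30 (adjusted p = 1.95e-06) in the same edgeR fit. The libraries did not carry these equally. For *insm1b* the difference was 0.01 in library 1, where the counting interval of the ratio ran from 0.582 to 1.31, and 2.52 in library 2. For *insm1a* it was 0.76 and 2.40, and for *neurod1* 1.27 and 2.04. Thus *insm1b* in progenitor-like cells exceeded V0v levels in library 2 alone. Within progenitor-like cells, sub-clusters 0 and 7, described below, held 337 of the 455 *insm1a* UMIs and 163 of the 215 *insm1b* UMIs. In sub-clusters 1, 2, 4 and 5 both genes lay below the V0v levels of 119 and 54.1 CPM over both libraries. In sub-clusters 3 and 8 both lay above them, and sub-cluster 6 had 0 CPM *insm1a* and 105 CPM *insm1b*. The higher *insm1a* and *insm1b* sums thus do not describe all progenitor-like cells. Sub-cluster 7, described below as nearer to newborn neurons, had 4 progenitor-like cells in library 1 and 44 in library 2. It held 10 of the 27 *insm1b* UMIs of progenitor-like cells in library 1 and 101 of the 188 in library 2. The parts of this unlike make-up and of the heat-shock difference between libraries were not tested.

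Listed genes of the pathways in which these 7 act moved in the same direction. Of 36 listed Notch pathway genes in the tables, 32 were tested, 28 passed, each as higher, with a median of 7.69 against -0.18 over all genes. *notch1b*, a receptor, differed by 10.47, the Delta ligand genes *dla* and *dld* by 10.13 and 9.64, and the Notch target *her4.3* by 9.65. Of 31 precursor factors, 22 were tested, 17 passed as higher and 2 as lower (median 2.05), led by *atoh1b* (9.49), *olig3* (8.35), *gadd45gb.1* (7.03) and *ebf2* (6.43).

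All 15 tested genes of 18 that mark spinal progenitor domains passed as higher, with a median of 7.998, among them *pax3a* (8.94), *msx3* (8.84) and *prdm12b* (8.60), and *dbx1a* (8.46), which marks the domain of V0v neurons. Of 13 oligodendrocyte lineage genes 4 reached the test, and 3 passed as higher, with *plp1a* at 9.12 and *mpz* at 5.76, where DESeq2's own test called 1. The 5 tested chromatin partners of Insm1 and Olig all passed as higher by smaller amounts, with *rcor1*, a CoREST gene, at 1.77 and the deacetylase gene *hdac1* at 1.08. Many fitted values above rest on V0v levels near 0, and their exact size depends on how the fit treats low counts. Such genes reached the test through classes where they were high, such as progenitor-like cells. Their passing as higher was therefore close to fixed in advance, and the list counts are descriptions.

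Progenitor-like cells fell into 9 sub-clusters, numbered 0 to 8, in which the 7 genes were spread unevenly. Sub-cluster 1 (71 cells) expressed the glial genes *fabp7a* and *slc1a2b* and had *gfap* at 6817 CPM. It had 246 CPM *neurog1*, 112 CPM *neurod4*, 42.3 CPM *insm1a* and no *olig4* UMI. Sub-cluster 4 (45 cells, 41 from library 1) was led by heat-shock genes and had 718 CPM *neurog1* with 65.9 CPM *neurod4*. *neurog1* was therefore present in cells with high *gfap*, where the other genes of the set were low.

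Sub-cluster 5 (58 cells) was led by Notch pathway genes such as *dld* and *her4.3*, with *olig2* itself among its leading genes. Here *neurog1* was at 590 CPM, *neurod4* at 395 CPM and *olig2* at 275 CPM, with *insm1a* at 103 CPM. Sub-cluster 8 (37 cells) was led by the dorsal genes *atoh1b*, *olig3* and *msx1b* and had 495 CPM *neurog1*, 486 CPM *insm1a*, 270 CPM *neurod1* and 252 CPM *neurod4*. It had 72.0 CPM *olig4*, and none of its 37 cells had an *olig2* UMI.

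Sub-clusters 0 and 7 carried the neuronal precursor genes *scrt1a*, *scrt2* and *nhlh2*. In sub-cluster 0 (16 and 31 cells) *neurod4* reached its highest level over both libraries, with 853 and 1122 CPM in libraries 1 and 2, next to 1138 and 616 CPM *neurog1*. *neurod1* was at 328 and 458 CPM there, and *neurod4* was found in 44 of the 47 cells without thinning. The progenitor markers *sox3* (1225 CPM) and *gfap* (1213 CPM) were still present, and *dbx1a*, at 1091 CPM, was at its highest of the 9 sub-clusters.

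Sub-cluster 7 (4 and 44 cells) had lost most progenitor marker signal, with *sox2* at 5.60 CPM and *gfap* at 190 CPM, and had the highest level of the pan-neuronal gene *elavl3*, 5082 CPM. *insm1a*, at 1287 CPM, and *insm1b*, at 621 CPM, were both at their highest here, as was *olig4* at 386 CPM. *neurog1* was at 97.7 and 107 CPM in libraries 1 and 2, below sub-cluster 0 in both. *neurod4* was below it in library 2 (131 against 1122 CPM) but not in library 1, where the 4 cells had 977 CPM (468 to 1796) against 853 CPM (607 to 1167). By its markers this sub-cluster resembled newborn neurons more than progenitors, although the clustering of all cells placed it with the latter.

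Taken as a pair, chosen after their values were seen, sub-clusters 0 and 7 were 95 of 375 progenitor-like cells. They held 90.7% of the *olig4* UMIs of progenitor-like cells, 75.8% of *insm1b*, 74.1% of *insm1a*, 68.6% of *neurod1*, 57.7% of *neurod4*, 26.7% of *neurog1* and 1.62% of *olig2*. Only 20 of the 95 cells came from library 1. In that library the pair held 45.8% of the *insm1a* UMIs, against 80.4% in library 2.

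*olig2* was concentrated elsewhere. Sub-cluster 6, with 2 cells from library 1 and 10 from library 2, held 139 of the 247 *olig2* UMIs (56.3%), found in 10 of its 12 cells. It was led by *mbpb* and *cldnk*, genes of myelinating cells, and *sox10*, and had *mbpb* at 4097 CPM, *sox10* at 808 CPM, *nkx2.2a* at 404 CPM and *olig1* at 344 CPM. Of the other 6 genes, *neurod1*, *neurod4*, *insm1a* and *olig4* had 0 UMIs, *neurog1* had 1 and *insm1b* had 7. Outside it, *olig2* was highest in sub-clusters 5 (48 UMIs in 10 cells) and 3 (23 UMIs in 4 cells). Sub-cluster 3 (17 cells) also held neuronal genes and had a median of 6048 UMIs per cell, the highest of the 9, and doublets were not tested for.

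**Figure D2:**
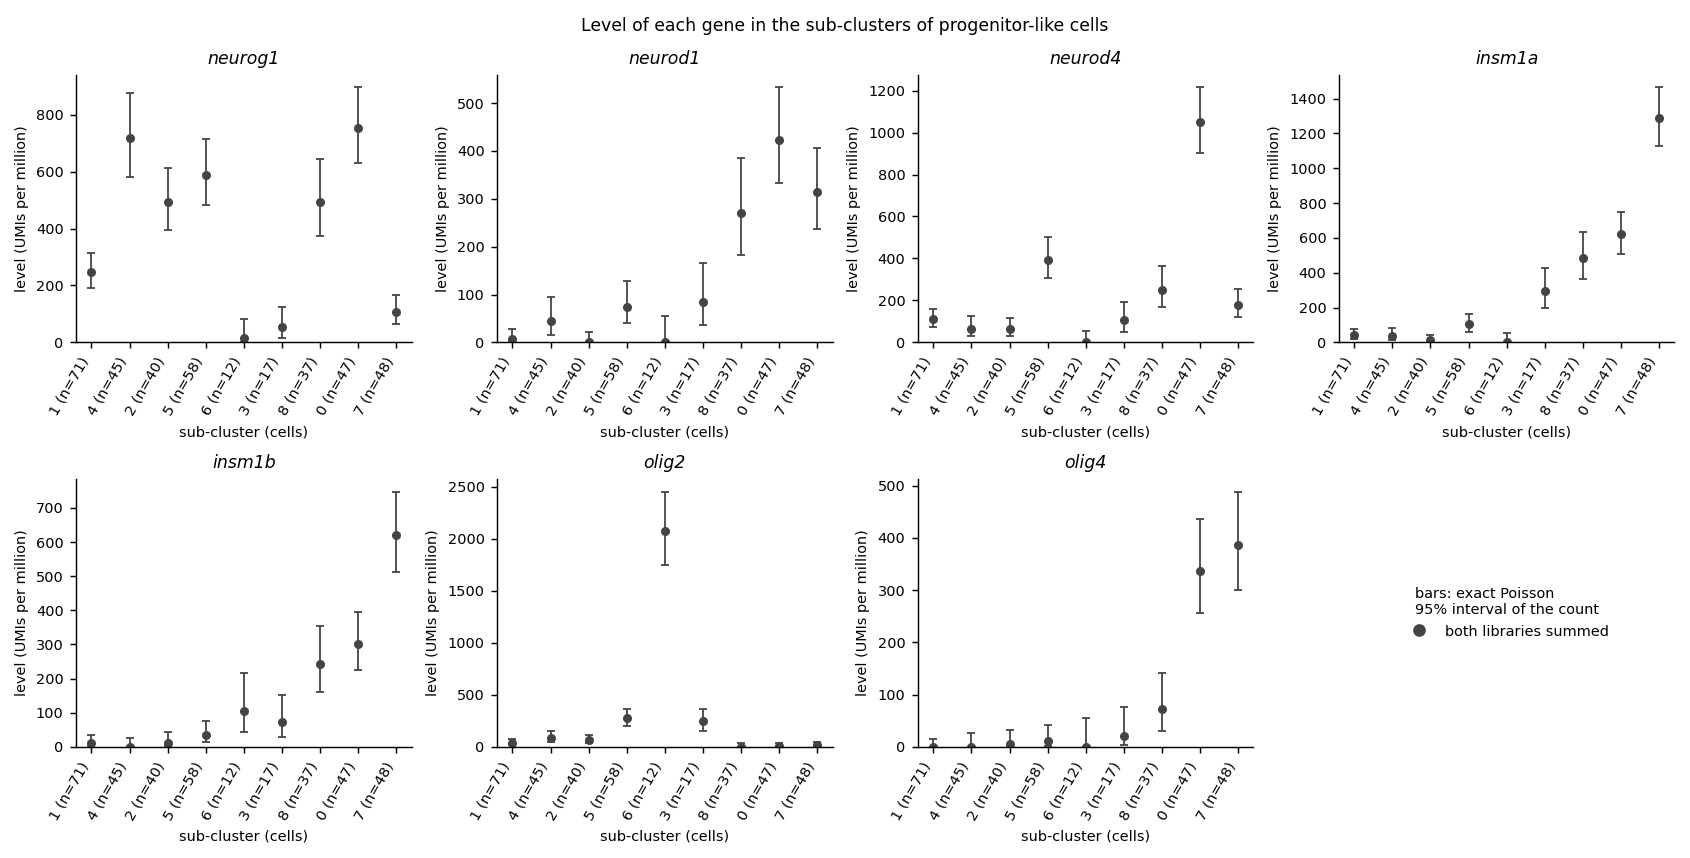
Level of each gene in the 9 sub-clusters of progenitor-like cells in CPM, both libraries summed, with exact Poisson 95% intervals. *olig2* peaks in sub-cluster 6 at 2079 CPM, *neurod4* in sub-cluster 0 at 1051 CPM, and *insm1a* and *insm1b* in sub-cluster 7.

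A scale built on marker ratios gave a similar order, though it was not independent of the clusters. Each progenitor-like or neuron-like cell was placed by the log2 ratio of its summed neuron markers to its summed progenitor markers, and the cells were split into 6 bins, with edges at ratios of -3, -1, 1, 3 and 5. Both libraries filled every bin, the smallest with 36 cells. Progenitor-like cells made up 97.2 to 100% of the bins under -1 and 0 to 1.02% of the bins from 3 up. The bins therefore largely restate the classes, which were also named by neuron and progenitor markers. With cells thinned to 1000 UMIs before they were placed, the bin at 5 or more held 1 and 0 cells, so its filling depends on depth. *neurog1* stood at 436 and 303 CPM in the first bin and 579 and 379 CPM in the second, its highest in both libraries. It then went to 182 and 325 CPM at -1 to 1 and to 27.3 and 36.0 CPM at 1 to 3.

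*neurod4* was highest at -3 to -1 in library 1, at 220 CPM, and at -1 to 1 in library 2, at 418 CPM. *neurod1* was highest at -1 to 1 in both, with 107 and 228 CPM, and was still at 93.5 and 122 CPM at 1 to 3. *insm1a* had 11.6 and 9.36 CPM in the first bin, 691 and 476 CPM at -1 to 1, 523 and 374 CPM at 1 to 3 and 111 and 69.5 CPM at ratios of 5 or more. *insm1a* thus peaked further toward neurons than *neurog1* in both libraries. In the thinned cells it still did, with 596 and 420 CPM at -1 to 1, but some places moved: *neurog1* was highest in the first bin of library 1 (619 against 533 CPM in the second), and *neurod4* of library 2 was highest at -3 to -1 (362 against 221 CPM at -1 to 1).

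*insm1b* had 248 and 263 CPM at -1 to 1 and 245 and 139 CPM at 1 to 3. *olig4* stayed at or below 25.6 CPM under -1, reached 150 and 224 CPM at -1 to 1 and 117 and 124 CPM at 1 to 3, and was at 8.64 and 13.1 CPM at 3 to 5. *olig2* had 116 and 427 CPM under -3, 131 and 159 CPM at -3 to -1 and 42.0 and 54.2 CPM at -1 to 1. Like *neurog1*, it was therefore higher on the progenitor side of the scale, which does not place both genes in the same cells. Sub-cluster 6, with 139 of the 247 *olig2* UMIs and 1 *neurog1* UMI, had *fabp7a* at 10184 CPM but *gfap* at 135 CPM. Its part in the levels of these bins was not tested. The bins order cells by markers at a single age and do not follow cells in time.

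**Figure D3:**
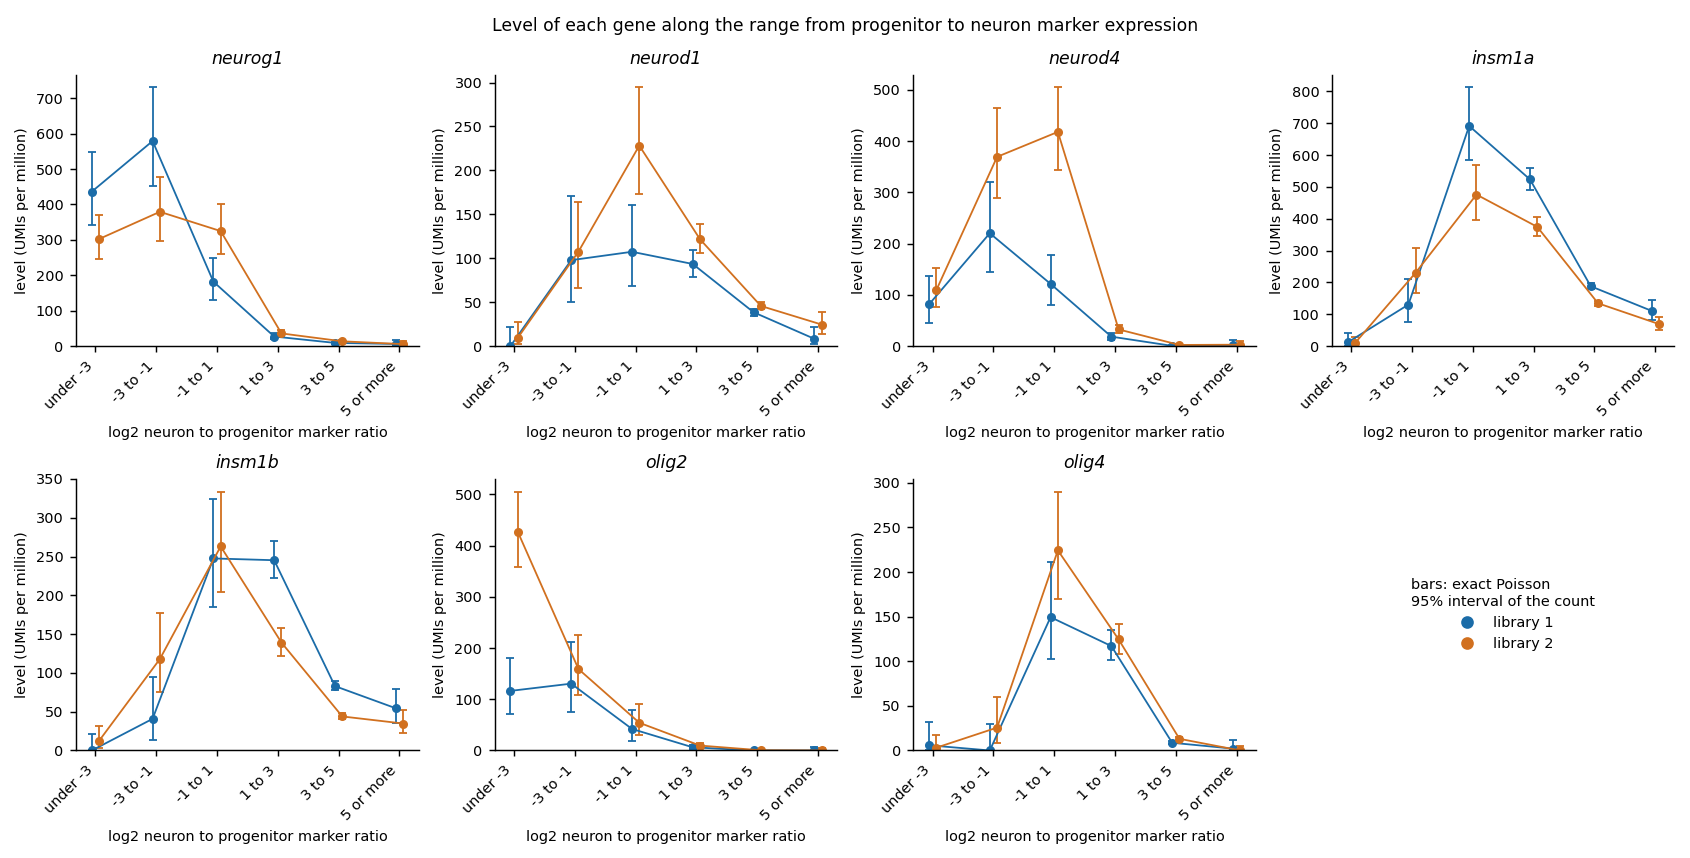
Level of each gene (CPM, vertical axis) in 6 bins of the log2 ratio of neuron to progenitor markers, for library 1 and library 2 with exact Poisson 95% intervals. *neurog1* and *olig2* are high at ratios under -1, *neurod4* from -3 to 1, and *insm1a*, *insm1b* and *olig4* from -1 to 3.

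Detection in single cells was compared next, in the 322 thinned progenitor-like cells. At least 1 of the 7 genes was detected in 61 of 104 cells in library 1 and 145 of 218 in library 2, and at least 3 in 14 and 52 cells. *insm1a* and *insm1b* were found together in 39 cells, where the product of their shares gives 13.8 cells. In library 1 alone the count was 5 cells against 1.30, and in library 2 it was 34 against 13.9.

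*insm1a* and *olig4* were found together in 28 cells against 8.80 from the product, *neurod1* and *insm1a* in 30 against 11.6, *neurod1* and *neurod4* in 26 against 13.1, and *neurog1* and *neurod4* in 45 against 26.6. The pair *neurog1* and *insm1a* came to 26 cells against 23.4, close to the product. *olig2* shared 1 cell with *neurod1* (4.57 from the product), 1 with *olig4* (3.48), 4 with *insm1a* (8.05), 5 with *neurod4* (9.14) and 7 with *neurog1* (9.24). The low counts came from library 2, with 0 cells for *neurod1* (3.53) and 2 for *insm1a* (6.66). In library 1 they were near the product, with 1 cell for *neurod1* (1.06), 2 for *insm1a* (1.44) and 1 for *insm1b* (0.865). Shared detection also follows from depth and from cells of mixed type, and no test was made of these counts.

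Cells with *insm1a* had a mean of 6.96 *elavl3* UMIs and 1.58 *gfap* UMIs after thinning, and cells without it 1.51 and 8.30. For *neurog1* the means of these genes showed no such contrast, with 2.73 *elavl3* UMIs in cells with it and 2.94 in cells without, and 6.65 and 6.598 *gfap* UMIs. The *gfap* means went opposite ways in the libraries, 8.32 against 6.73 in library 1 and 5.49 against 6.55 in library 2. Other values did differ: *fabp7a* had 3.33 UMIs in cells with *neurog1* and 9.83 in cells without. *elavl3* was detected in 69.9% and 55.0% of them. *scrt2*, a precursor repressor gene, was found in 71.6% of the cells with *insm1a*, 74.3% of those with *olig4*, 29.0% of those with *neurog1* and 0% of the 32 cells with *olig2*. *sox10* was found in 28.1% of the cells with *olig2* and 0.690% of those without.

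Sub-cluster 2 was the cycling one, with 23 cells in library 1 and 17 in library 2 and *mki67*, a proliferation marker, at 678 and 441 CPM. In library 1 its *neurog1* level was 506 CPM against 592 CPM in the other progenitor-like cells, and in library 2 it was 480 CPM against 318 CPM. *neurod1* had 0 UMIs in cycling cells and 188 in the others, *insm1a* 2 and 453, *insm1b* 2 and 213, *olig4* 1 and 139, *neurod4* 11 and 358, and *olig2* 11 and 236. *neurog1* was thus well represented in cycling progenitor-like cells, though 1 cell held 19 of its 37 UMIs in those of library 2.

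In the edgeR test 1.48% of 9587 genes passed, 71 as higher and 71 as lower (0.741% each). With size factors of DESeq2 the split was 115 and 44, and the median over all genes moved from -0.50 to -0.22. Of the 7 genes, 5 passed as lower in cycling cells: *insm1a* by -5.22 ± 0.79 (adjusted p = 3.35e-05), *insm1b* by -4.22 ± 0.92 (adjusted p = 0.00684), *olig4* by -4.36 ± 1.096 (adjusted p = 0.0233), *neurod4* by -2.38 ± 0.50 (adjusted p = 0.00455), and *neurod1* (adjusted p = 3.12e-04), at least 8.92-fold lower with a floor of 3 counts over the cycling cells. In DESeq2's own test 2 of the 7 passed, *neurod1* and *insm1a*. *neurog1* (-0.11, adjusted p = 0.940) and *olig2* (-1.64, adjusted p = 0.158) did not pass. Counting intervals of the ratio of cycling to other cells were 0.973 to 1.57 for *neurog1* (0.608 to 1.18 in library 1 and 1.04 to 2.14 in library 2), 0.00374 to 0.113 for *insm1a* and 0.107 to 0.391 for *neurod4*. In library 1 the intervals of *insm1b* (2 against 25 UMIs) and *olig4* (1 against 16 UMIs) did not exclude equal levels. *neurod1*, *insm1a*, *insm1b* and *olig4* had 0, 2, 2 and 1 UMIs in the cycling cells of both libraries. They reached the test through classes where they were high and could hardly have passed as higher, so their calls as lower are descriptions. The other cells included sub-clusters 0 and 7, rich in these genes. Sub-clusters 1 and 4, not cycling, had 11.5 and 0 CPM *insm1b*, against 11.8 CPM in cycling cells. They had no *olig4* UMI, and *neurod4* was at 112 and 65.9 against 64.7 CPM. *insm1a* was at 42.3 and 36.6 against 11.8 CPM. Low levels were thus not particular to cycling cells.

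The differences between cycling and other progenitor-like cells also depend on 18 cells. A cluster of 8 and 10 cells, with 6 cycling markers past the naming rule but *sox3* as its sole progenitor marker, stayed unnamed and outside the comparison. It had *insm1a* at 2113 and 2857 CPM, above every cell group described before it, although sub-cluster 7 had 2344 CPM in its 4 cells of library 1. It also had *neurod4* at 196 and 463 CPM, *neurod1* at 137 and 309 CPM and *neurog1* at 117 and 257 CPM. Further genes there were *vsx1* (528 CPM), *gata2a* (489 CPM) and *tal1* (443 CPM), genes of V2 interneuron precursors, with no UMI of *evx1* or *dbx1a*, and its median depth was 5981 and 7176 UMIs. *insm1b* had 3 UMIs there against 330 of *insm1a*, which is 99.1% of the pair (97.4 to 99.8%, exact binomial), and 98.2 and 99.6% in the libraries, against 51.9 to 88.2% per library in the named neuron groups, progenitor-like cells and the inhibitory cluster.

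With this cluster counted as cycling, an alternative chosen after its values were seen, *insm1a* turned from -5.22 to 1.76 (adjusted p = 0.00188), *neurod1* moved to -0.40 (adjusted p = 0.772) and *neurod4* to -0.53 (adjusted p = 0.634), while *insm1b* stayed at -3.37 (adjusted p = 0.00274) and *olig4* at -3.87 (adjusted p = 0.00740). *neurog1* stayed at -0.22 (adjusted p = 0.882). In 5 other settings 16 to 18 of these 18 cells joined the cycling class, and *insm1a* was higher in cycling cells in each of the 5, by 1.33 to 2.02. Those 5 settings changed other cells too. Of the 40 cycling cells, 26 to 40 stayed in the cycling class, and progenitor-like cells numbered 398 to 518 against 375. So *insm1b* and *olig4* were low in both kinds of cycling cell, and *insm1a* was low in one and high in the other.

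Of the precursor factors, 22 were tested in this comparison and 11 passed, each as lower (median -1.80 against -0.50 over all genes). *scrt2* and *atoh1b* had 0 UMIs in the cycling cells of either library, and *nhlh2* and *scrt1a* differed by -4.98 and -4.85. Of 33 Notch pathway genes, 7 passed, each as lower, among them *dlb* (-3.85), *her4.2* (-2.23), *dld* (-2.07) and *her4.3* (-1.94). Of 17 domain genes 0 passed in edgeR and 0 in DESeq2, and 3 had an unadjusted p under 0.05. *rcor1* was the 1 chromatin partner of 5 that passed, at -3.93, and *mbpb* the 1 oligodendrocyte lineage gene of 6, with no UMI in cycling cells and 2.87 and 327 CPM in the others, most of it in sub-cluster 6. DESeq2's own test called 5 precursor factors, 2 Notch pathway genes and 0 in each of these last lists. Genes with few UMIs in cycling cells reached the test through classes where they were high. Such genes could hardly have passed as higher, so these list counts too are descriptions.

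Among neurons, the genes that extend past the progenitor-like cells were not spread evenly. The neuron-like cells formed 15 clusters, numbered 0 to 14, many of them from nearly a single library. Cluster 0 (494 cells of library 1 and 2 of library 2) and cluster 9 (25 and 510 cells) had the lowest levels of *elavl4* (159 and 318 CPM) and of the synaptic gene *snap25a* (60.8 and 109 CPM) and the highest of *scrt1a* (2044 and 2830 CPM). They also had *evx1* at 245 and 347 CPM. Both belonged to the unnamed neurons.

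Clusters 0 and 9 together, again chosen after their values were seen, had 584 and 368 CPM *insm1a* in libraries 1 and 2, against 180 and 108 CPM in all other neuron-like clusters. *insm1b* was at 260 and 120 CPM against 80.5 and 37.1 CPM, and *neurod1* at 117 and 108 CPM against 34.0 and 38.4 CPM. The contrast of *olig4* was the widest, at 148 and 117 CPM against 4.33 and 4.26 CPM. The pair held 85.1% of the *olig4* UMIs of neuron-like cells, 37.8% of *insm1a*, 37.1% of *insm1b* and 36.7% of *neurod1*, in 1031 of 6233 cells.

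*olig4* outside these clusters was mostly in cluster 1 (30 UMIs) and cluster 7 (26 UMIs). Cluster 7 (52 and 212 cells) had *evx1* at 2.06 CPM and *isl1*, a gene of motoneurons and dorsal neurons, at 211 CPM. *insm1a* there was at 263 and 131 CPM and *neurod1* at 61.1 and 43.3 CPM. Cells with little *evx1* therefore also carried *insm1a* and *neurod1*.

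**Figure D4:**
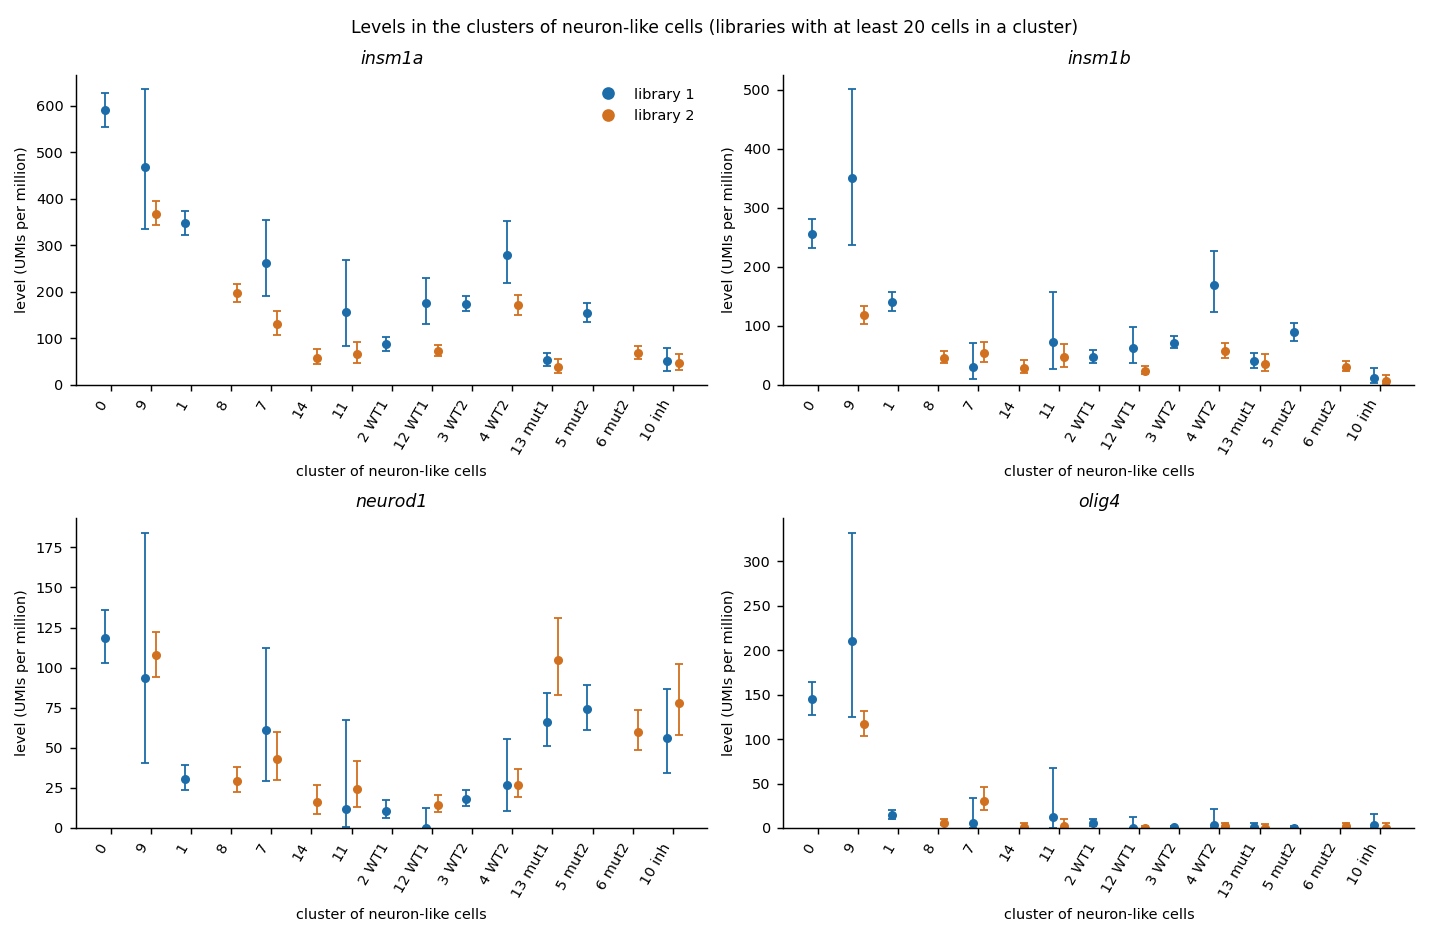
Level of *insm1a*, *insm1b*, *neurod1* and *olig4* (CPM, vertical axis) in the 15 neuron-like clusters, for each library with at least 20 cells there, with exact Poisson 95% intervals. Clusters 0 and 9 have the highest *olig4* (145 CPM in cluster 0 of library 1 and 117 CPM in cluster 9 of library 2). They also have the highest *neurod1*, at 118 and 107 CPM over both libraries, and *neurod1* is at 56.2 CPM or more in clusters 5, 6, 10 and 13.

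To ask whether the genes differ between neurons with mutant-like and WT-like expression, the sums of mutant-like groups 1 and 2 were compared with those of WT-like groups 1 and 2. In the edgeR test 3.93% of 9767 genes passed, 155 as higher (1.59%) and 229 as lower (2.34%), and with DESeq2 size factors the split was 242 and 189. *neurod1* passed as higher and *insm1a* as lower. The other 5 genes did not pass.

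*neurod1* had 180 UMIs in mutant-like and 77 in WT-like cells of library 1 (70.4 and 15.3 CPM), and 172 and 69 in library 2 (74.3 and 19.7 CPM). The fitted difference was 2.11 ± 0.24 (adjusted p = 1.82e-07, edgeR), with 2.33 and 1.95 within the libraries and a ratio of summed levels of 4.22 (3.47 to 5.16). It kept its direction and its side of the threshold in all 7 alternatives. Both mutant-like groups lay above both WT-like groups in each library. Cluster 11, which met the marker levels of mutant-like group 2 but was left unnamed, was not part of this test. It had 22.7 CPM *neurod1* over both libraries, among the WT-like levels. The difference therefore holds for the named groups and does not describe every cluster with mutant-like marker levels.

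*insm1a* had 115 CPM in mutant-like and 154 CPM in WT-like cells of library 1, and 58.7 and 113 CPM in library 2. Its difference was -0.92 ± 0.26 (adjusted p = 0.0311), -0.58 and -1.11 within the libraries. With DESeq2's size factors the adjusted p was 0.0862 and without the library term 0.311, and in DESeq2's own test 0.399. The groups overlapped, since mutant-like group 2 (157 CPM in library 1) lay above WT-like group 1 (101 CPM), so the call did not describe both mutant-like groups alike.

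*insm1b* differed by -0.19 ± 0.29 (adjusted p = 0.861), with a ratio of summed levels of 0.926 (0.791 to 1.08). *neurog1* differed by -0.42 ± 0.43 (adjusted p = 0.743) at levels of 8.57 and 11.2 CPM. *neurod4*, *olig2* and *olig4* had 15, 2 and 19 UMIs in all 4 groups together, and a difference was not detectable at this depth.

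In the lists, 4 of 22 precursor factors passed, each as higher in mutant-like groups: the bHLH genes *bhlhe22* (4.07), *nhlh2* (2.13) and *tcf12* (1.03), and *sox11a* (0.68). Of 32 Notch pathway genes 2 passed, both as lower, the ligand genes *dll4* (-3.76) and *jag2b* (-1.34), where DESeq2's own test called 1. Of 15 tested domain genes *irx3a* passed, at 1.997. The medians of the 5 lists lay between -0.28 and 0.30, against -0.08 over all genes.

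The WT-like groups were also compared with each other. Here 10.9% of 9767 genes passed, 616 as higher in group 1 (6.31%) and 449 as lower (4.6%), and of the 7 genes *insm1a* passed, as lower in group 1. It had 101 and 183 CPM in groups 1 and 2 of library 1 and 72.6 and 170 CPM in library 2, a difference of -1.12 ± 0.34 (adjusted p = 0.0250, edgeR). *insm1b* (-1.02 ± 0.38) and *neurod1* (-1.01 ± 0.38) had the same sign in both libraries and adjusted p = 0.0792 each. The call of *insm1a* was lost in 4 of 9 alternatives. Of 22 precursor factors *onecut1* (1.11) and *cbfa2t3* (1.06) passed as higher in group 1 and *sox11a* (-1.17) as lower, as did *hdac1* (-0.90) among 5 chromatin partners.

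The inhibitory cluster, which had met the rule of mutant-like group 1 before it was set apart, was last compared with WT-like groups 1 and 2. In this test 7.4% of genes passed, 378 as higher (3.87%) and 345 as lower (3.53%), a split of 638 and 216 with DESeq2 size factors. *neurod1* passed as higher, with 56.2 against 15.3 CPM in library 1 and 77.8 against 19.7 CPM in library 2, a difference of 1.93 ± 0.33 (adjusted p = 1.99e-04, edgeR) that held in all 8 alternatives. This comparison and the one with mutant-like groups share their WT-like sums, so the *neurod1* values of both rest on the same 4 sums.

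*insm1b* and *insm1a* passed as lower. *insm1b* had 4 UMIs in the inhibitory cluster of each library, 11.2 against 68.4 CPM and 6.22 against 37.3 CPM, and differed by -2.65 ± 0.64 (adjusted p = 0.00814). *insm1a* differed by -1.45 ± 0.39 (adjusted p = 0.0169), with 50.6 against 154 CPM and 46.7 against 113 CPM. The call of *insm1b* was lost in 2 of 8 alternatives and that of *insm1a* in 4 of 8. Cluster 11, with *slc6a5* at 1074 CPM, was not part of this test. Over both libraries it had 22.7 CPM *neurod1*, 50.3 CPM *insm1b* and 77.9 CPM *insm1a*, so these differences do not describe all inhibitory neurons. *neurog1* (0.85 ± 0.55, adjusted p = 0.412) did not pass, and *neurod4* had no UMI in this cluster.

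In the lists, 2 of 15 domain genes passed, *nkx6.2* (6.21) and *irx3a* (3.44), both as higher. Of 22 precursor factors 3 passed as higher, among them *cbfa2t3* (1.84), and 2 as lower, among them *scrt1a* (-2.14), and of 32 Notch pathway genes 2 passed in each direction, where DESeq2's own test called 0. The cluster had *evx1* at 64.6 and 42.0 CPM, *mnx1* at 19.7 and 37.3 CPM and *tal1* at 53.4 and 107 CPM. Whether these cells were V0v neurons cannot be told from the labels.

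**Figure D5:**
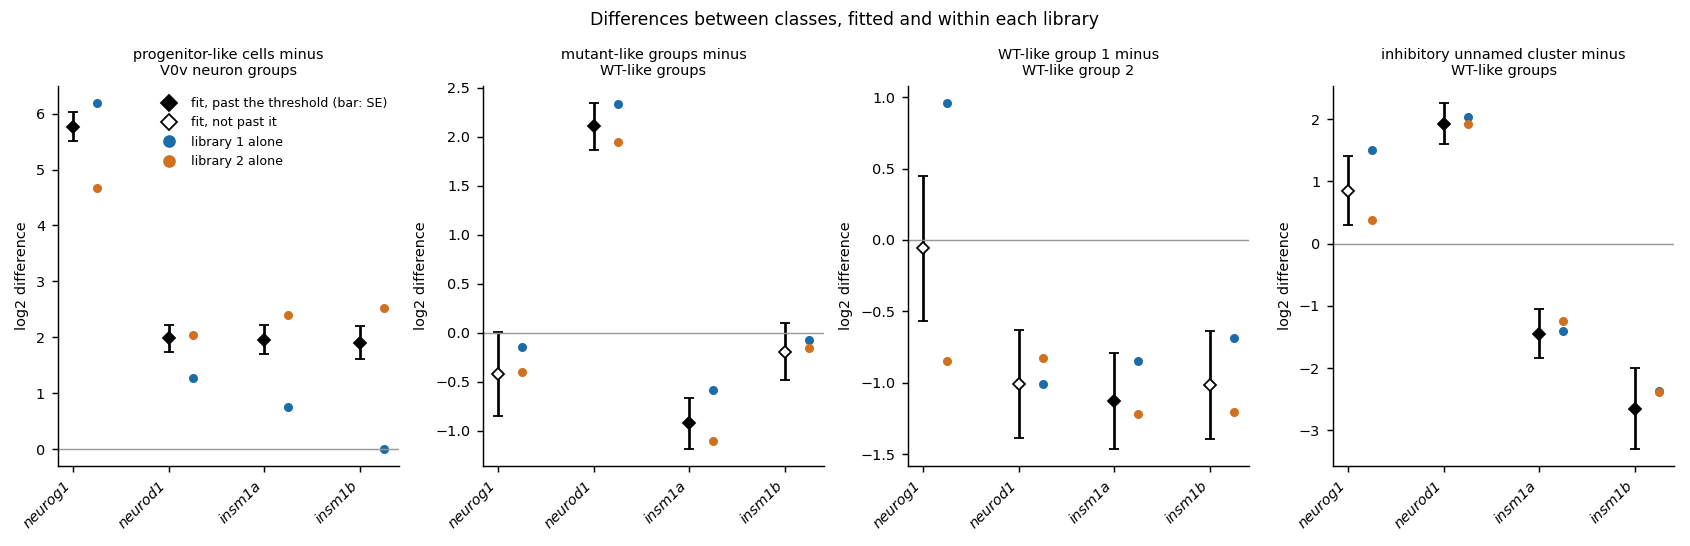
Fitted log2 difference of *neurog1*, *neurod1*, *insm1a* and *insm1b* in 4 comparisons, with standard errors as bars, filled symbols for calls past the threshold and the differences within each library as coloured points. *neurod1* lies above 0 in mutant-like groups and in the inhibitory cluster in both libraries, and *insm1b* lies at 0.01 in library 1 in the comparison of progenitor-like cells.

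Markers of some other cell types moved with these groups. Floor plate markers (4 genes) summed to 156 and 155 CPM in progenitor-like cells and 2.73 to 13.7 CPM in the V0v groups, and 6 notochord markers to 74.8 and 69.3 CPM against 3.94 to 15.6 CPM, with *tbxta* at 0 in each of these groups. In progenitor-like cells the notochord marker *col9a1a* was at 0 in both libraries. *shha*, a marker in both lists, was at 0 in library 1, as was *ntn1b*, so the 156 CPM came from *foxj1a* and *ntn1a*. In the inhibitory cluster 8 motoneuron markers, none at 0, summed to 185 and 414 CPM, against 18.6 to 90.7 CPM in the WT-like groups. Its 6 neural crest or pigment markers summed to 177 and 154 CPM against 1.37 to 8.90 CPM, with *sox10*, *crestin*, *mitfa* and *dct* at 0 in both libraries. In library 1 *pmela* was at 0 too, so the 177 CPM was *foxd3* alone. In library 2 the sum came from *foxd3* and *pmela*. These sums therefore do not by themselves show crest or pigment cells. *en1b*, a gene of V1 interneurons, was among the leading genes of this cluster. The part of these cell types in the results was not tested.

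In progenitor-like cells and the neuron groups, blood markers (5 genes) differed by library, at 25.6 to 38.6 CPM in library 1 and 240 to 280 CPM in library 2, except for the unnamed neurons of library 2 at 948 CPM. In the same groups skin markers (6 genes) lay between 2.81 and 20.1 CPM in library 1 and between 93.2 and 159 CPM in library 2. The 6 muscle markers summed to 538 to 815 CPM in the neuron groups and 723 and 652 CPM in progenitor-like cells, with none at 0, and the 7 fibroblast markers to 5.19 to 27.3 CPM and to 36.3 and 41.1 CPM.

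The genes were last compared over all 20 class sums by Pearson's correlation of log2(CPM + 10), as a description over sums that share libraries. *insm1a* and *insm1b* were alike (r = 0.94), as were *neurog1* and *neurod4* (r = 0.93) and *neurod4* and *olig2* (r = 0.91), whereas *neurod1* and *olig2* were not (r = 0.30). Genes high in the progenitor-like sums alone come out alike here, whether or not the same cells hold them. In thinned progenitor-like cells *neurod4* and *olig2* shared 5 cells against 9.14 from the product, and sub-cluster 6 had no *neurod4* UMI. Among 13012 other genes the most alike were *sp8b* (0.96), *sp8a* (0.96) and *dbx1a* (0.95) for *neurog1*, *slc6a11b*, *sox19a* and *plp1a* (0.99 each) for *neurod4*, and *mbd3b* (0.91), *hoxb8a* (0.90) and *unc119b* (0.89) for *neurod1*. *gdf11* came first for both *insm1a* (0.94) and *insm1b* (0.90), followed by *PHF21B* (0.93) and *pou3f3a* (0.91), and by *stap2a* (0.88) and *eif4g2a* (0.88). For *olig2* they were *si:dkeyp-92c9.2* (0.97), *prdm8* (0.96) and *celsr1b* (0.95), and for *olig4* *bcl11ab* (0.94), *si:ch73-30b17.2* (0.93) and *CU634008.1* (0.92).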

How the data were processed

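Sorted EGFP-positive cells from trunks at 48 h were profiled as 2 droplet libraries. The deposited counts are whole UMIs per gene and cell, made by the authors with Cell Ranger 4.0.0 and a zebrafish transcriptome annotation, and the genome build is not given in the sources used here. Both libraries were used as replicates of 1 group. Cells with at most 12000 UMIs, 500 to 2500 genes and at most 6% mitochondrial UMIs were kept, with 13493901 and 20112054 UMIs in all. Cells were clustered with scanpy 1.11.5 (2000 variable genes, 30 components, 15 neighbours, Leiden resolution 1.0), leaving the 7 genes and all listed genes out of the variable genes. Cell types and cycling cells were named from marker lists by thresholds of 100 CPM and 3-fold that were set after marker values were seen. WT-like and mutant-like names used marker levels relative to the median of the neuron-like clusters. They also used the order of *slc17a6a* against *slc6a5* or *slc6a1b*, and a cutoff of 10 CPM for markers of groups 1 and 2. A cluster whose leading genes held more markers of other cell types than of its own was left unnamed. The members and lists were chosen with earlier results of these data known.

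UMIs were summed per class and library (at least 20 cells, or 15 for cycling cells) into 20 sums of 10 classes with 9 residual degrees of freedom. Sums of the same library share its preparation, so the library was a term in the model. Differences were tested with edgeR 4.0.16 (quasi-likelihood, TMM, Benjamini-Hochberg adjustment over all genes, threshold 0.05, R 4.3.3) after a test on simulated data, and within-library values are log2 ratios of CPM + 1. DESeq2 1.42.0, its size factors, no filter, no library term, other quality limits, resolutions and variable genes, and count splitting were tried as alternatives. No fit was run with a library left out. Every member is named. From each list the text names up to 4 genes past the threshold with the largest difference of the same sign in both libraries, and for each member the 3 genes most alike in class level. Other genes named for clusters were chosen after their values were seen. Intervals are at 95%.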

Additional observations from a re-analysis of the deposited data

How the results depend on the processing

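The differences between progenitor-like cells and V0v groups kept direction and call for all 7 genes in all 12 alternatives that refitted every gene. The number of genes called fell to 3043 with count splitting (cells clustered on one part of the counts and tested on the other). For mutant-like against WT-like groups it was 221 with no replicate block, that is without the library term, and 138 with splitting. For WT-like group 1 against 2 it was 482 and 589, and for the inhibitory cluster 406 and 428. The number for cycling cells was 231 with 10% mitochondrial UMIs, 275 and 236 at resolutions 0.5 and 2.0, 449 with 1000 variable genes, 246 with *COX3* counted as mitochondrial and 266 with the unnamed cycling cluster added. *insm1a* in cycling cells reversed to 2.02 with 10% mitochondrial UMIs, 1.90 at resolution 0.5, 1.33 with 1000 variable genes, 1.96 with splitting, 1.40 with *COX3* and 1.76 with the cluster added. Those settings put 16 to 18 of its 18 cells among the cycling cells. *neurog1*, never called there, was at 0.12 in DESeq2's test, 0.18 with its size factors, 0.25 with 1000 variable genes and 0.04 with *COX3*. Uncalled genes of few UMIs also turned in sign: for mutant-like groups *neurog1* (0.39, 10% mitochondrial UMIs), *neurod4* (0.65) and *olig4* (1.69, both splitting), for WT-like groups *neurog1* (0.04 with size factors, 0.07 with 1000 variable genes) and *olig4* (-0.72 with *COX3*, and -4.50 with splitting, adjusted p = 0.0267 in edgeR), and for the inhibitory cluster *neurog1* (-1.10) and *olig2* (-2.27, both *COX3*). The cause of these changes was not tested. Only the fit with the cluster added moved its 18 cells and no others, while the other settings also rebuilt the groups. In cycling cells the call was lost for *neurod1* in 6 of 11 alternatives, *neurod4* in 7, *olig4* in 3 and *insm1b* in 2, and *olig2* gained it in 7. The *COX3* setting, the minimum of 15 cells, leaving out the 12-cell sub-cluster and adding the unnamed cluster were chosen after seeing the data. Some alternatives rebuilt the groups without giving a class of the same name in both libraries and could not be fitted: resolutions 0.5 and 2.0 for both WT-like and mutant-like comparisons and for the inhibitory cluster, 1000 variable genes and *COX3* for mutant-like groups, 10% mitochondrial UMIs for the inhibitory cluster, and a minimum of 50 cells for cycling cells. With 1 library left out no residual degrees of freedom remain, so the values within each library stand in place of that test. Depth limits *olig2*, *olig4* and *neurod4* in neurons, where counts are few.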

Other observations

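Apart from the unnamed cycling cluster described above, the cells outside the progenitor-like and neuron-like groups held few UMIs of the 7 genes, with 1 exception. A cluster of 79 and 417 cells that met no naming rule had 45 *olig2* UMIs, of which 43 were in a single cell of library 2, so that its level of 34.1 CPM there is the value of 1 cell. In the same cluster *insm1a* was at 23.5 and 15.16 CPM and *neurog1* at 0 and 3.03 CPM. Another unnamed cluster of 33 and 186 cells had 0 UMIs of all 7 genes in library 1, and in library 2 it had 8 *olig2*, 8 *insm1a* and 6 *neurog1* UMIs.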
